A study of Petromyzon marinus with 12 samples.

Results

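The KMT1 knockout effect on mRNA levels of sea lamprey (Petromyzon marinus) embryos was compared between days of development, to find the genes with a different effect at day 3 than at day 2. For each gene the knockout effect was the log2 ratio of KMT1 knockout over wildtype at 1 day, and the day difference was the day 3 effect minus the day 2 effect. The genes considered were those with counts above 0 in all 8 KMT1 knockout and wildtype libraries, which were 11354 of the 22407 genes in the deposited table, or 50.7%. Of these, 11353 entered the test. They are called the detected genes below. A positive day difference means that the knockout library level, relative to wildtype of the same day, was higher at day 3 than at day 2.

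KMT1 is the class of histone methyltransferases that holds the SUV39 enzymes, which place methyl groups on lysine 9 of histone H3, the mark read by HP1 proteins in heterochromatin. In early vertebrate embryos, mRNAs laid down in the egg are cleared while the embryo's own genome is switched on, and lampreys also discard part of their genome from cells that will not form the germline. Histone methylation is one of the chromatin features studied in both events.

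The groups were KMT1 knockout and wildtype embryos at day 3, and KMT1 knockout and wildtype embryos at day 2, with KMT5A knockout embryos at both days used for values alongside. KMT5A is the enzyme class that adds 1 methyl group to lysine 20 of histone H4. Per the labels, knockouts were made by injecting Cas9 protein with guide RNAs and fluorescein dextran and were screened for fluorescence at 24 hours after fertilization, so each pool may mix edited and unedited cells. All embryos were kept at 18 °C, and the labels do not say whether wildtype embryos were injected. Each group had 2 libraries, and each library came from RNA of about 100 snap-frozen embryos. The p-values therefore rest on the spread between 2 pools per group, estimated jointly over all 6 groups and not from the compared groups alone. The median log2 gap between pools, over genes with at least 100 counts in both, was 0.162 in day 3 KMT1 knockout. It was 0.172 in day 3 KMT5A knockout and 0.0951 to 0.108 in the other groups. In whole embryos, fewer cells of a type and less RNA per cell cannot be told apart.

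The gene that the deposited annotation names SUV39H2 was matched to the KMT1 label by enzyme class, which is an assumption because the labels do not name the lamprey gene. SUV39H2 lies on chromosome 14 at 8620044 to 8633357 on the plus strand, in the coordinates of the deposited annotation, whose assembly is not named in the sources used here. It had 32.7 and 36.8 CPM (counts scaled to a common library size) in KMT1 knockout pools at day 3, against 51.6 and 56.1 CPM in wildtype pools at day 3. At day 2 it had 145 and 151 CPM in KMT1 knockout pools, against 119.7 and 119 CPM in wildtype pools. Its level was thus below both wildtype pools in both knockout pools at day 3 and above them at day 2, with no overlap at either day. The day difference was -0.94 (SE 0.12, edgeR adjusted p = 0.00436). The day 3 effect was -0.63 (adjusted p = 0.00624) and the day 2 effect was 0.31 (adjusted p = 0.0677). A guide-induced small insertion or deletion need not lower the mRNA level, so these values are no measure of editing. The KMT5A gene, which was not targeted in these pools, had 198 and 204 CPM in KMT1 knockout and 197 and 208 CPM in wildtype at day 3, and its day difference was -0.02 (adjusted p = 1).

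The libraries held between 61886305 and 89061394 counts, and between 12331 and 15278 genes above 0. Annotated ribosomal RNA genes took 4.533% of counts in day 3 KMT1 knockout pool 2 and 9.347% in day 3 KMT5A knockout pool 1, against 0.3983 to 0.6786% in the other 10 libraries. Of the markers checked, summed neural marker CPM was 1560 to 1641 in KMT1 knockout and 1545 to 1564 in wildtype at day 3, and 75.8 in both KMT1 knockout pools and 82.0 to 87.6 in wildtype at day 2. Among the marker genes that were detected, KRT8 (PM15869), an epithelial keratin, was the only one whose day difference passed the test, and it was positive. Detected were 4 of 4 pluripotency and blastula, 2 of 4 mesoderm, 4 of 7 endoderm and 8 of 14 epidermis genes. For neural, muscle and blood markers they were 4 of 4, 1 of 1 and 0 of 1. Of all detected genes, 13.1% passed the test. Summed pluripotency and blastula marker CPM was 475 to 515 in KMT1 knockout and 545 to 553 in wildtype at day 3, and 912 to 943 in KMT1 knockout and 827 to 838 in wildtype at day 2. At day 2, KMT1 knockout and wildtype sums overlapped for mesoderm (29.0 to 30.9 and 27.0 to 32.4) and endoderm (24.1 to 28.9 and 26.0 to 31.7). They also overlapped for muscle (18.0 to 21.6 and 19.4 to 19.6). Epidermis sums were 407.1 to 417.5 in KMT1 knockout and 405.6 to 406.9 in wildtype at day 2. At day 3, KMT1 knockout and wildtype sums did not overlap for endoderm (1047 to 1053 and 1057 to 1061). They overlapped for mesoderm (61.5 to 71.0 and 66.6 to 71.9), muscle (6.99 to 10.4 and 7.47 to 9.22) and epidermis (164 to 208 and 169 to 175). These marker sums were scaled by the total counts of each library alone, so they are not on the scale of the other CPM values here. They rest on the listed symbols found in the annotation, 2 of 5 neural and 3 of 7 pluripotency and blastula symbols. For mesoderm, endoderm, epidermis and muscle, 3 of 6, 4 of 5, 4 of 6 and 1 of 3 symbols were found. A fit with a term for the libraries rich in ribosomal RNA gave 1206 positive and 503 negative day differences. It kept 1365 of the 1490 calls reported below. The part of ribosomal RNA in the results was not tested in another way, and that of these marker levels was not tested.

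The knockout effect differed between days for 1490 of the 11353 detected genes, or 13.1%, at an edgeR adjusted p under 0.05. The day difference was positive for 1079 of them (9.5%) and negative for 411 (3.62%). Over all 15615 genes tested, detected or not, 10.2% were called. Among the 1079 genes with a positive difference, the median day 3 effect was 0.17 and the median day 2 effect was -0.28, and 760 had effects of opposite sign at the 2 days. Among the 411 genes with a negative difference, the median day 3 effect was -0.26 and the median day 2 effect was 0.45, and 349 had effects of opposite sign. Most of these differences were small: 109 positive and 105 negative ones exceeded 1 on the log2 scale. The knockout-to-wildtype ratios of the 2 days did not overlap for 5582 of the detected genes (49.2%), and all 1490 called genes were among these.

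The split between directions depended on scaling. The day difference had a median of 0.10 over all detected genes, and scaling by library size alone moved this median to -0.03 and gave 49 positive and 79 negative calls, or 38.3% positive against 72.4%. No called gene changed sign under any alternative tried, but their ratios did not overlap between days, which left little room for a change of sign. Leaving out 1 library left a group with a single pool and gave 1356 and 1644 calls without day 3 KMT1 knockout pool 1 or 2, the second being the pool rich in ribosomal RNA. It gave 896 and 801 calls without day 3 wildtype pool 1 or 2. Without day 2 KMT1 knockout pool 1 or 2 it gave 665 and 576, and without day 2 wildtype pool 1 or 2 it gave 629 and 686.

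Within single days, day 3 KMT1 knockout differed from day 3 wildtype in 874 detected genes (7.7%), with 662 higher (5.83%) and 212 lower (1.87%). Day 2 KMT1 knockout differed from day 2 wildtype in 1503 detected genes (13.2%), with 445 higher (3.92%) and 1058 lower (9.32%). The 2 comparisons share no library. They had 146 genes in common, which was 16.7% of the day 3 genes and 9.71% of the day 2 genes. Of the 146, 80 moved in the same direction at both days and 66 in opposite directions.

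Among genes with a positive day difference, the day of the call against wildtype went with the direction of change during development. This direction was read from KMT5A knockout libraries. Those libraries stand in no contrast of KMT1 knockout with wildtype, although they shared the filter and the estimate of spread in the same fit. They are not a neutral reading of development. The KMT5A day difference had a median of 0.47 among the positive and -0.61 among the negative genes. A rise or fall in KMT5A knockout may therefore hold part of the same difference, and how much was not tested. Among genes with a positive difference, 377 were called against wildtype at day 3 alone, with a median day 3 effect of 0.56 and a median day 2 effect of -0.09. Of these 377, 333 (88.3%) were lower in day 3 than in day 2 KMT5A knockout embryos and 34 were higher. Another 554 were called at day 2 alone, with a median day 3 effect of 0.03 and a median day 2 effect of -0.51. Of these 554, 524 (94.6%) were higher in day 3 than in day 2 KMT5A knockout embryos and 16 were lower. Over all detected genes, 4280 (37.7%) were higher and 4260 (37.5%) were lower at day 3 than at day 2 in the same libraries by the edgeR test, together 75.2%.

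Put by level, the positive genes called at day 3 alone were mostly ones that KMT5A knockout embryos held less of by day 3. All 377 had a day 3 effect above 0, which the way they were picked largely fixed. Their median wildtype level was 35.1 CPM at day 3 and 132 CPM at day 2. The positive genes called at day 2 alone were mostly ones that KMT5A knockout embryos gained by day 3. All 554 had a day 2 effect below 0, again largely fixed by how they were picked. Their median wildtype level was 299 CPM at day 3 and 102 CPM at day 2. The wildtype libraries took part in the picking, so these wildtype levels are no separate support. Of the 69 genes with a negative difference called at day 3 alone, 26 were higher and 35 (50.7%) lower at day 3 than at day 2 in KMT5A knockout, and of the 233 called at day 2 alone, 59 were higher and 150 (64.4%) lower. The remaining called genes passed the single-day test at both days (48 positive, 31 negative) or at neither (100 positive, 78 negative).

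**Figure D1:**
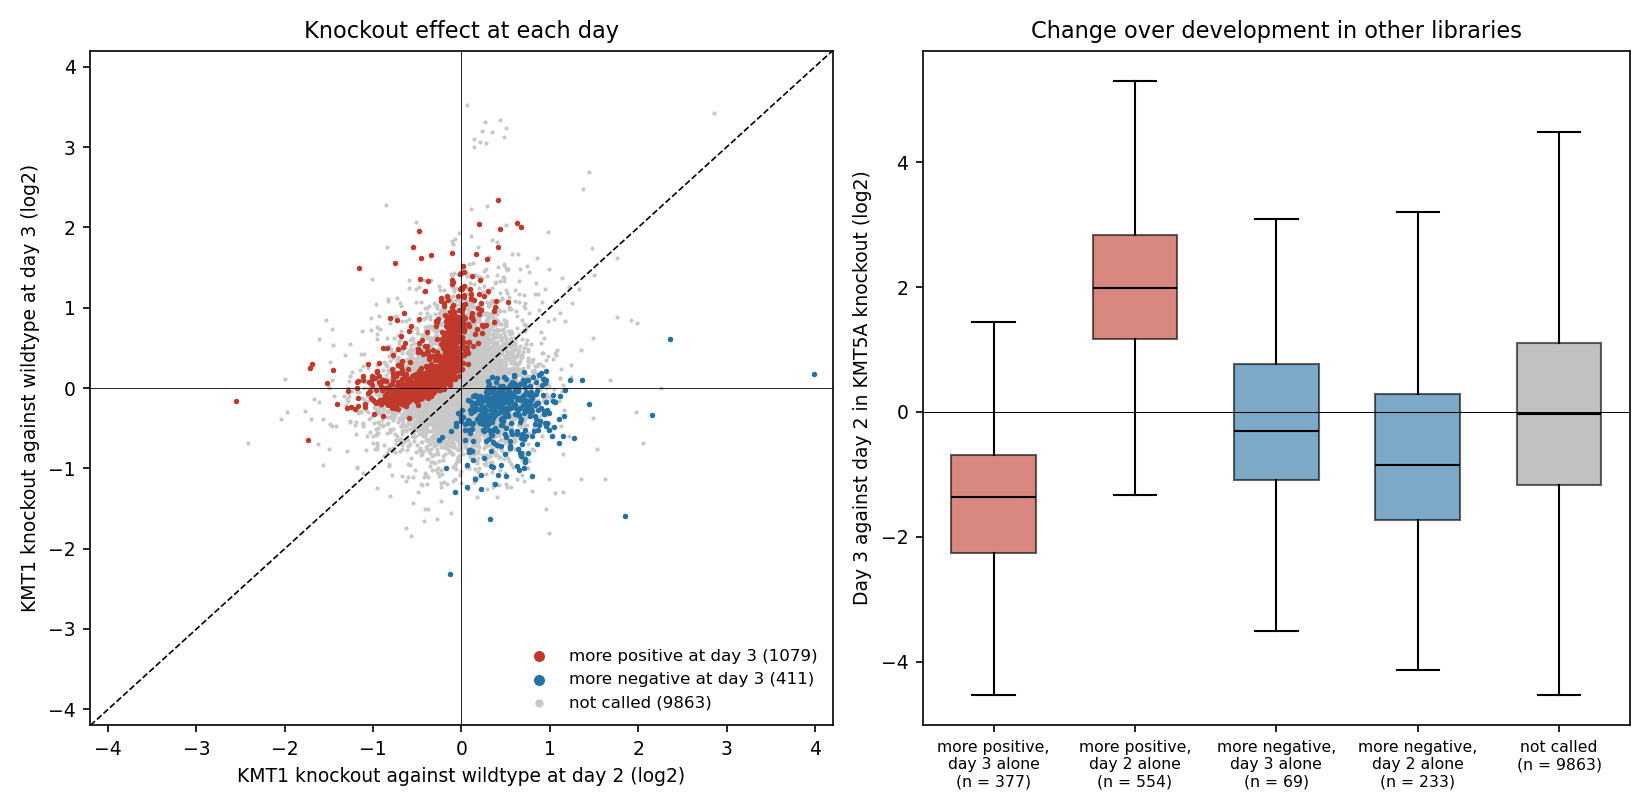
Left, each point is 1 of 11353 detected genes, with the KMT1 knockout effect at day 3 on the vertical axis and at day 2 on the horizontal axis (log2, dashed line where both are equal), and the 1079 genes with a positive and 411 with a negative day difference coloured. Right, boxes give the quartiles and median, and whiskers 1.5 interquartile ranges, of the log2 change at day 3 against day 2 in KMT5A knockout embryos. The medians are -1.36 for the 377 positive genes called at day 3 alone, 1.98 for the 554 called at day 2 alone, -0.31 and -0.85 for the 69 and 233 negative genes, and -0.04 for genes not called.

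The called genes were expressed at higher levels and were longer than the rest. The median wildtype level was 124 CPM at day 3 and 114 CPM at day 2 for genes with a positive difference, 34.5 and 37.9 CPM for genes with a negative one, and 14.2 and 15.8 CPM for the 9863 not called. The median exonic length was 4452 bases for positive, 6416 bases for negative and 3614 bases for genes not called. The median number of exons was 9, 12 and 8 in the same 3 classes. The part of level and length in these counts was not tested.

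Among the positive differences of largest size, 3 belonged to genes that were scarce at day 2 and abundant at day 3. SLC12A3 (PM13099), named for the sodium-chloride cotransporter of the mammalian kidney tubule, lies on chromosome 25. It had 3517 and 3354 CPM in KMT1 knockout and 3910.0 and 3768 CPM in wildtype at day 3, and 3.15 and 2.67 CPM in KMT1 knockout and 16.2 and 17.8 CPM in wildtype at day 2. Its knockout pools were thus close to wildtype at day 3 and several-fold below wildtype at day 2, and the day difference was 2.39 (SE 0.18, adjusted p = 0.000792). CXCR4 (PM11083), a chemokine receptor that guides migrating cells, had 575 and 642 CPM in KMT1 knockout and 497 and 495 CPM in wildtype at day 3. At day 2 CXCR4 had 6.37 and 6.72 CPM in KMT1 knockout and 20.7 and 21.7 CPM in wildtype. The CXCR4 groups did not overlap at either day, and the difference was 1.99 (SE 0.17, adjusted p = 0.001) with a day 2 effect of -1.70. THBS1 (PM10544), a secreted matrix glycoprotein, had 322 and 353 CPM in KMT1 knockout and 279 and 288 CPM in wildtype at day 3. At day 2 THBS1 had 3.13 and 1.99 CPM in KMT1 knockout and 8.15 and 8.66 CPM in wildtype. Its difference was 1.97 (adjusted p = 0.00394), again with most of it at day 2, where the effect was -1.72 against 0.25 at day 3. For these 3 genes the day 3 effect alone did not pass the test.

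A second set of large positive differences came from knockout levels above wildtype at day 3. KLHL10, a BTB-Kelch adaptor of a ubiquitin ligase with a role in mouse spermatids, had 37.5 and 34.4 CPM in KMT1 knockout and 9.15 and 9.39 CPM in wildtype at day 3. At day 2 KLHL10 had 1.08 and 0.845 CPM in KMT1 knockout and 1.46 and 1.22 CPM in wildtype. The day 3 effect of 1.95 passed the test (adjusted p = 0.00048), the day 2 effect of -0.48 did not, and the difference was 2.43 (SE 0.20, adjusted p = 0.001). INSM1, a zinc-finger repressor of neuroendocrine and neuronal precursors in mammals, had 28.5 and 32.4 CPM in KMT1 knockout and 9.76 and 8.19 CPM in wildtype at day 3. At day 2 INSM1 had 1.70 and 1.59 CPM in KMT1 knockout and 2.25 and 2.56 CPM in wildtype. INSM1 was thus above wildtype at day 3 and below it at day 2, and both single-day effects passed the test (1.76 and -0.55). FBXL7, an F-box subunit of ubiquitin ligases, had 23.3 and 27.6 CPM in KMT1 knockout and 10.1 and 9.68 CPM in wildtype at day 3, and its difference was 1.83 (adjusted p = 0.00702).

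PRXL2B, a peroxiredoxin-like prostamide and prostaglandin synthase, differed from these in that wildtype embryos held less of it at day 3 than at day 2. It had 13.5 and 10.2 CPM in KMT1 knockout and 2.15 and 2.55 CPM in wildtype at day 3, and 45.5 and 48.8 CPM in KMT1 knockout and 37.6 and 33.2 CPM in wildtype at day 2. The knockout pools were above wildtype at both days, and by more at day 3, where the effect was 2.34 (adjusted p = 0.000469). DLX6 (PM08470), a distal-less homeobox factor, had 4.07 and 3.07 CPM in KMT1 knockout and 1.18 and 1.14 CPM in wildtype at day 3, and 5.15 and 5.52 CPM in KMT1 knockout and 6.65 and 7.97 CPM in wildtype at day 2, with a difference of 2.08 (adjusted p = 0.00513). NMU, a neuropeptide, and PLCD1 (PM05661), a phospholipase C, followed the pattern of PRXL2B with differences of 2.00 and 1.84 and day 3 effects that passed the test. SYK (PM01621), a cytoplasmic tyrosine kinase, and ALDH1B1 (PM00981), a mitochondrial aldehyde dehydrogenase, had differences of 2.65 and 2.30, but neither passed the test at either day alone. How the authors' counting treated reads shared by near-identical copies is not given in the sources used here, so values of genes with several annotated copies, shown with an identifier, are uncertain.

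The negative difference of largest size was that of PTGS2, the inducible cyclooxygenase that makes prostaglandin precursors, on chromosome 50. PTGS2 had 17.0 and 11.8 CPM in KMT1 knockout and 12.996 and 12.6 CPM in wildtype at day 3, and 186 and 142 CPM in KMT1 knockout and 11.8 and 8.79 CPM in wildtype at day 2. The groups overlapped at day 3, and at day 2 both knockout pools were more than 10 times wildtype. The difference was -3.82 (SE 0.30, adjusted p = 0.00089), with a day 2 effect of 3.99. LONRF1, a RING-finger protein, had the same shape at a smaller size: 12.96 and 8.20 CPM in KMT1 knockout and 7.60 and 6.28 CPM in wildtype at day 3, and 50.4 and 49.1 CPM in KMT1 knockout and 8.58 and 10.8 CPM in wildtype at day 2. RITA1, a Notch pathway regulator that binds RBPJ in human cells, had 0.316 and 0.236 CPM in KMT1 knockout and 0.557 and 1.12 CPM in wildtype at day 3, and 5.13 and 4.63 CPM in KMT1 knockout and 1.26 and 1.45 CPM in wildtype at day 2. RITA1 was therefore below wildtype at day 3 and above it at day 2, with a difference of -3.44 (adjusted p = 0.0104).

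GLIS1, a Krüppel-like zinc-finger factor that is a maternal transcript in mouse eggs, carried its difference at day 3. It had 7.71 and 7.60 CPM in KMT1 knockout and 36.8 and 39.3 CPM in wildtype at day 3, and 14.7 and 13.1 CPM in KMT1 knockout and 16.3 and 14.1 CPM in wildtype at day 2. Knockout and wildtype overlapped at day 2 and stood far apart at day 3, where the effect was -2.31 (adjusted p = 0.000469). The difference was -2.18 (SE 0.23, adjusted p = 0.00211). FAM107A (PM09765), an actin-associated protein gene on chromosome 14, also differed mainly at day 3, with 1.12 and 1.47 CPM in KMT1 knockout and 3.63 and 4.38 CPM in wildtype. LETM1 (PM08609) and TMEM181 (PM20536) had negative differences of -1.90 and -1.68 with a day 3 effect that passed the test. TPST2 (PM17169), KIF4B (PM01216) and AMDHD2 had -1.89, -1.75 and -1.65 with a day 2 effect that passed it. MAN2B1, a lysosomal mannosidase, had -1.71 and passed at neither day alone.

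Of the 24 genes named for the size of their difference, 11 stayed called when any 1 of the 8 libraries was left out. These were 8 positive ones (KLHL10, SLC12A3, INSM1, DLX6, CXCR4, THBS1, PRXL2B and FBXL7) and 3 negative ones (PTGS2, GLIS1 and FOS).

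**Figure D2:**
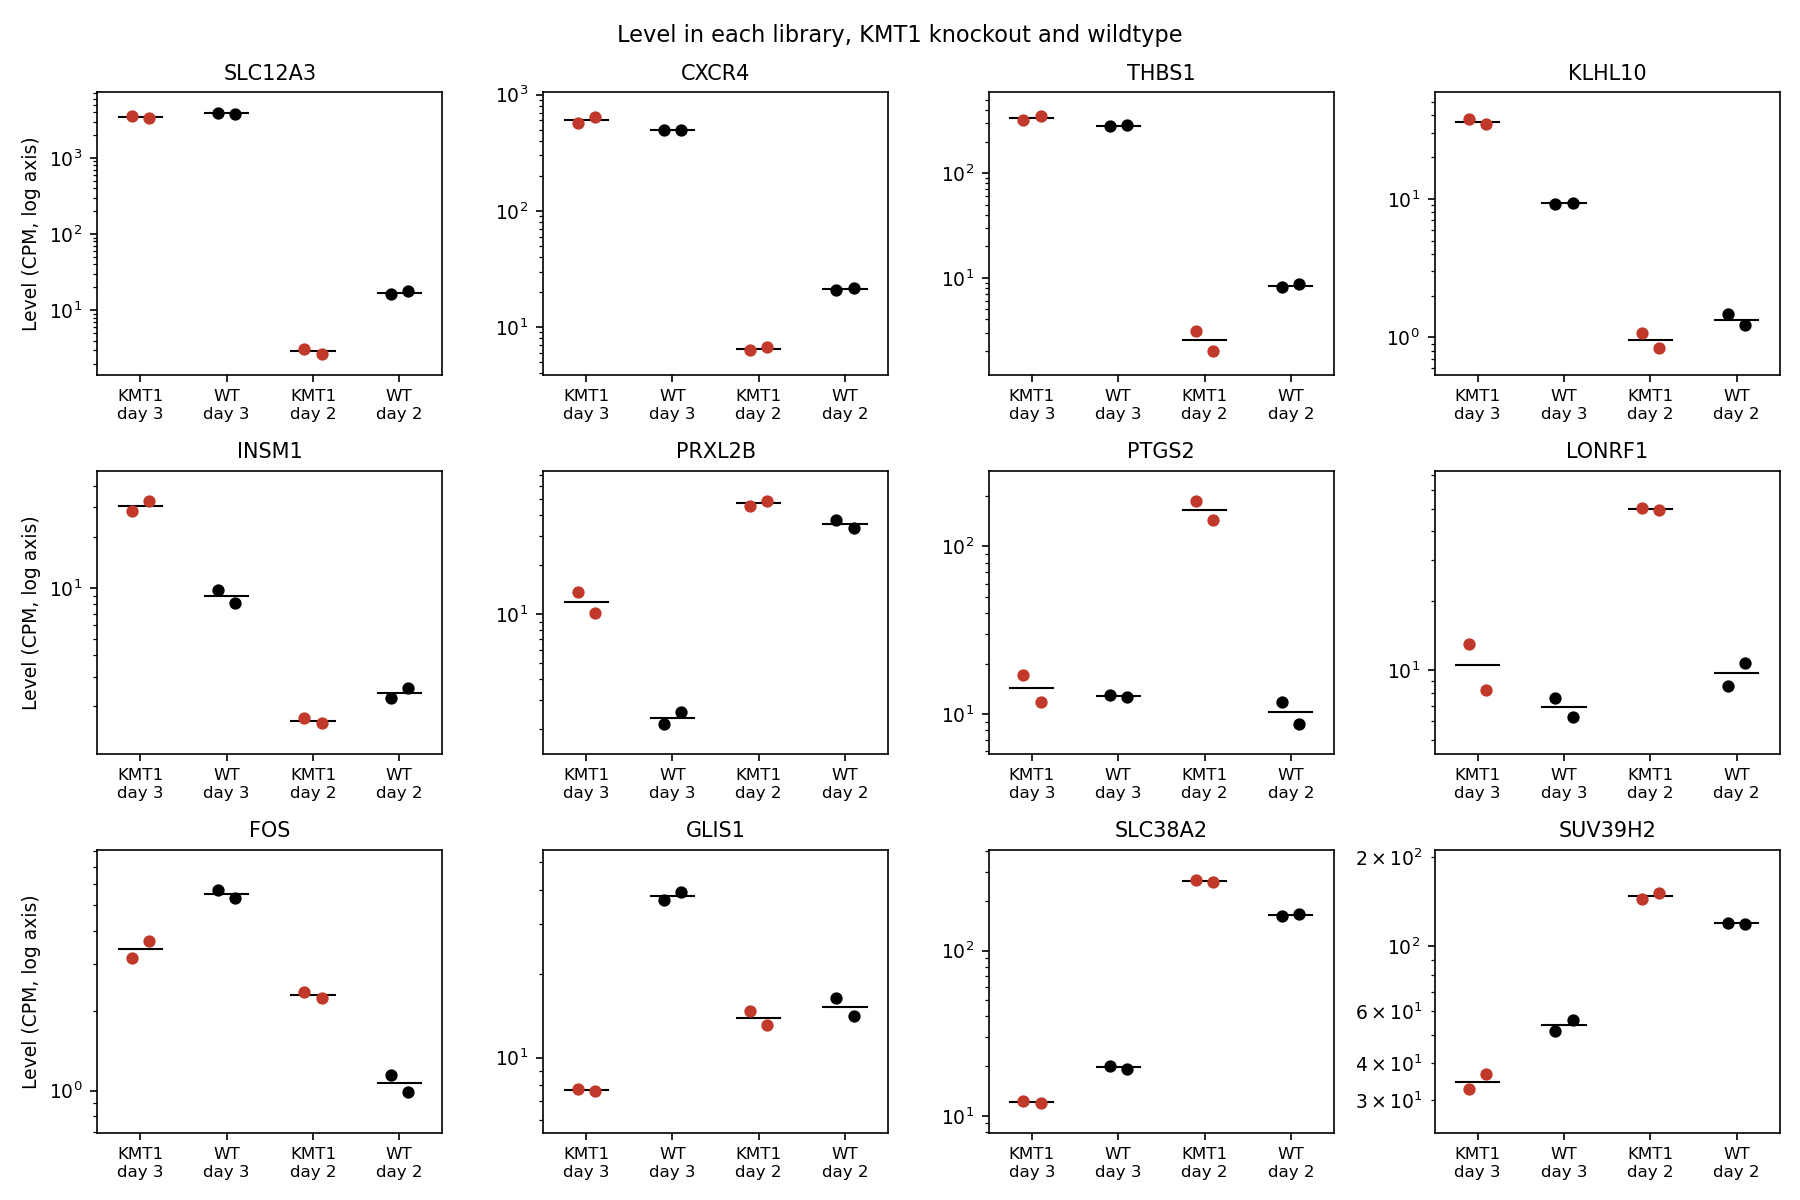
Level of 12 genes in each KMT1 knockout (red) and wildtype (black) library at day 3 and day 2, in CPM on a log axis whose range differs between panels; points are libraries and lines are means of 2. SLC12A3, CXCR4 and THBS1 separate at day 2, KLHL10, INSM1, PRXL2B and GLIS1 separate most at day 3, PTGS2 and LONRF1 separate at day 2, and FOS, SLC38A2 and SUV39H2 are below wildtype at day 3 and above it at day 2.

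Cytosolic ribosomal protein genes, which encode the structural proteins of the ribosome, formed the most uniform group. Of 85 detected members, 71 had a positive day difference that passed the test and 0 had a negative one, against 9.5% and 3.62% of all detected genes. At an unadjusted p under 0.05 the counts were 79 positive and 0 negative, and limma voom and DESeq2 called 75 and 77 positive and 0 negative. The median difference was 0.58, with a median day 3 effect of -0.12 and a median day 2 effect of -0.73. At day 2, 79 of the 85 were lower in KMT1 knockout than in wildtype by the single-day test and 0 were higher. At day 3, 4 were lower and 1 was higher. Of all detected genes, 9.32% were lower and 3.92% higher at day 2, and 1.87% lower and 5.83% higher at day 3. By library, both knockout pools were below both wildtype pools for 54 of 85 members at day 3 and for 82 of 85 at day 2. Over all detected genes, this held for 3072 of 11353 at day 3 and for 4453 of 11353 at day 2.

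The summed level of these 85 genes was 68657 and 69659.7 CPM in KMT1 knockout and 75203 and 76627 CPM in wildtype at day 3. At day 2 the sum was 6593 and 6485 CPM in KMT1 knockout and 10424 and 10158 CPM in wildtype. The sums did not overlap at either day, and the gap was wider at day 2 on the ratio scale. Over the same interval the group became far more abundant: in KMT5A knockout libraries, 83 of the 85 were higher at day 3 than at day 2, with a median log2 change of 3.67. RPL10, a protein of the large subunit, had 1195 and 1229 CPM in KMT1 knockout and 1327 and 1353 CPM in wildtype at day 3, and 70.6 and 72.4 CPM in KMT1 knockout and 137 and 129.9 CPM in wildtype at day 2. RPL8, another protein of the large subunit, had 1481 and 1432 CPM in KMT1 knockout and 1672 and 1655 CPM in wildtype at day 3, and 125 and 119.7 CPM in KMT1 knockout and 216 and 216 CPM in wildtype at day 2. Both genes thus stood a little below wildtype at day 3 and at little more than 50% of it at day 2, with differences of 0.76 and 0.63 (adjusted p = 0.00327 and 0.001).

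The call was spread over both ribosomal subunits, with 41 of 46 large subunit genes (median 0.59) and 27 of 35 small subunit genes (median 0.55). It was made for 67 of 76 symbols with a single detected gene and for 4 of 9 genes whose symbol had several. The count fell to 5 with scaling by library size alone, under which the list median was 0.45 and the median over all detected genes -0.03. It was 42 without day 2 wildtype pool 1 or day 2 KMT1 knockout pool 2, and 47 without day 2 KMT1 knockout pool 1. The list median lay between 0.45 and 0.58 under every alternative.

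**Figure D3:**
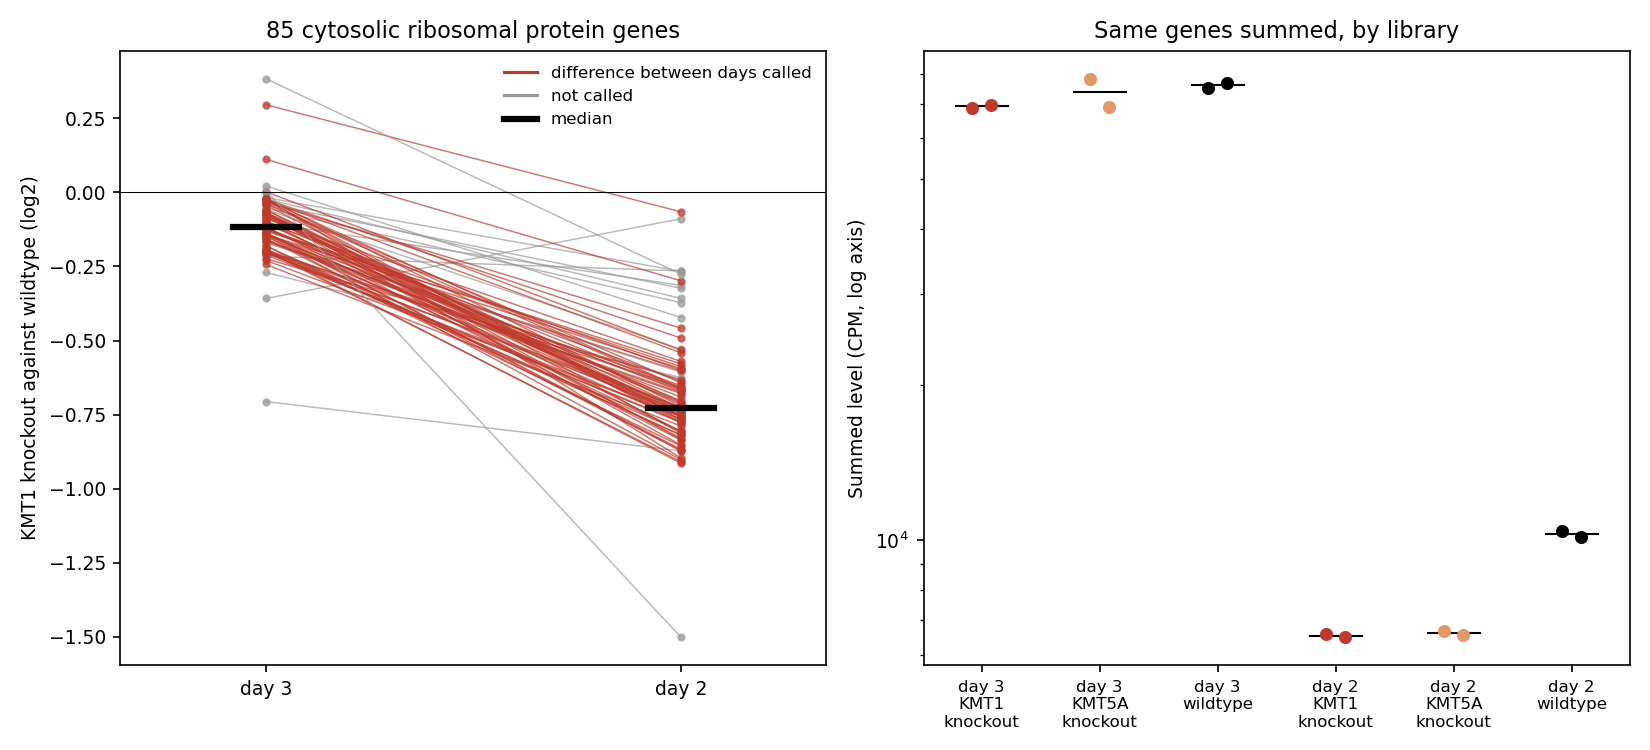
Left, the KMT1 knockout effect (log2) of 85 cytosolic ribosomal protein genes at day 3 and day 2, with a line joining the values of each gene and black bars at the medians of -0.12 and -0.73. Right, the summed level of the same genes in each of 12 libraries (CPM, log axis), with points for libraries and lines for the mean of 2; the day 2 knockout libraries lie between 6485 and 6667 CPM and the day 2 wildtype libraries at 10158 and 10424 CPM.

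Ribosome biogenesis and nucleolar genes, whose products process ribosomal RNA and assemble subunits, leaned the same way. Of 93 detected members, 43 had a positive difference and 0 a negative one by edgeR, against 9.5% and 3.62% of all detected genes. The counts were 62 and 1 at an unadjusted p under 0.05, and 55 and 1 by DESeq2. The median difference was 0.30, with a day 3 effect of -0.04 and a day 2 effect of -0.32. At day 2, 66 members were lower in knockout and 0 higher, against 9.32% and 3.92% of all detected genes. At day 3, 3 members were lower and 1 higher, against 1.87% and 5.83%. Their summed level was 59736 and 61733 CPM in KMT1 knockout and 61740 and 62187 CPM in wildtype at day 3, and 15741 and 15539 CPM in KMT1 knockout and 20332 and 20118 CPM in wildtype at day 2. TSR1, a maturation factor of the small subunit, had 545 and 567 CPM in KMT1 knockout and 581 and 591 CPM in wildtype at day 3, and 102 and 102 CPM in KMT1 knockout and 164 and 159 CPM in wildtype at day 2. RRP12, which helps export pre-ribosomal particles in yeast, had a difference of 0.59 (adjusted p = 0.001), with a day 3 effect of -0.01 and a day 2 effect of -0.60. NOL11 and WDR75, which belong to the complex that processes the small subunit RNA, had differences of 0.54 and 0.56. Across the fits that left out 1 library, between 18 and 42 members were called, and with library size alone 0 were.

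Other lists of genes for making RNA and protein had positive medians at smaller size, beside the median of 0.10 over all detected genes. Of all detected genes, 9.5% had a positive and 3.62% a negative call. Splicing and mRNA processing had 31 positive and 3 negative calls of 158 (median 0.22), and SNRPA, the U1 snRNP protein A, had a day 3 effect of -0.00052 and a day 2 effect of -0.52. Translation factors and tRNA synthetases had 19 positive and 3 negative of 95 (median 0.17), among them EIF3I, a subunit of initiation factor 3, with a difference of 0.78, and EIF5 with 0.38. Mitochondrial ribosomal proteins had 12 positive calls of 74 (median 0.23). Heat shock proteins and chaperones had 11 positive and 1 negative of 52 (median 0.20), with DNAJA2 at 0.48 (adjusted p = 0.00104) and HSP90AB1 (PM00922) at 1.58 (adjusted p = 0.00554). RNA polymerase II and Mediator subunits had 18 positive and 2 negative of 94, but their median of 0.13 turned to -0.001 with library size alone. Proteasome subunits had 4 positive calls of 41, a share close to that of all detected genes.

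**Figure D4:**
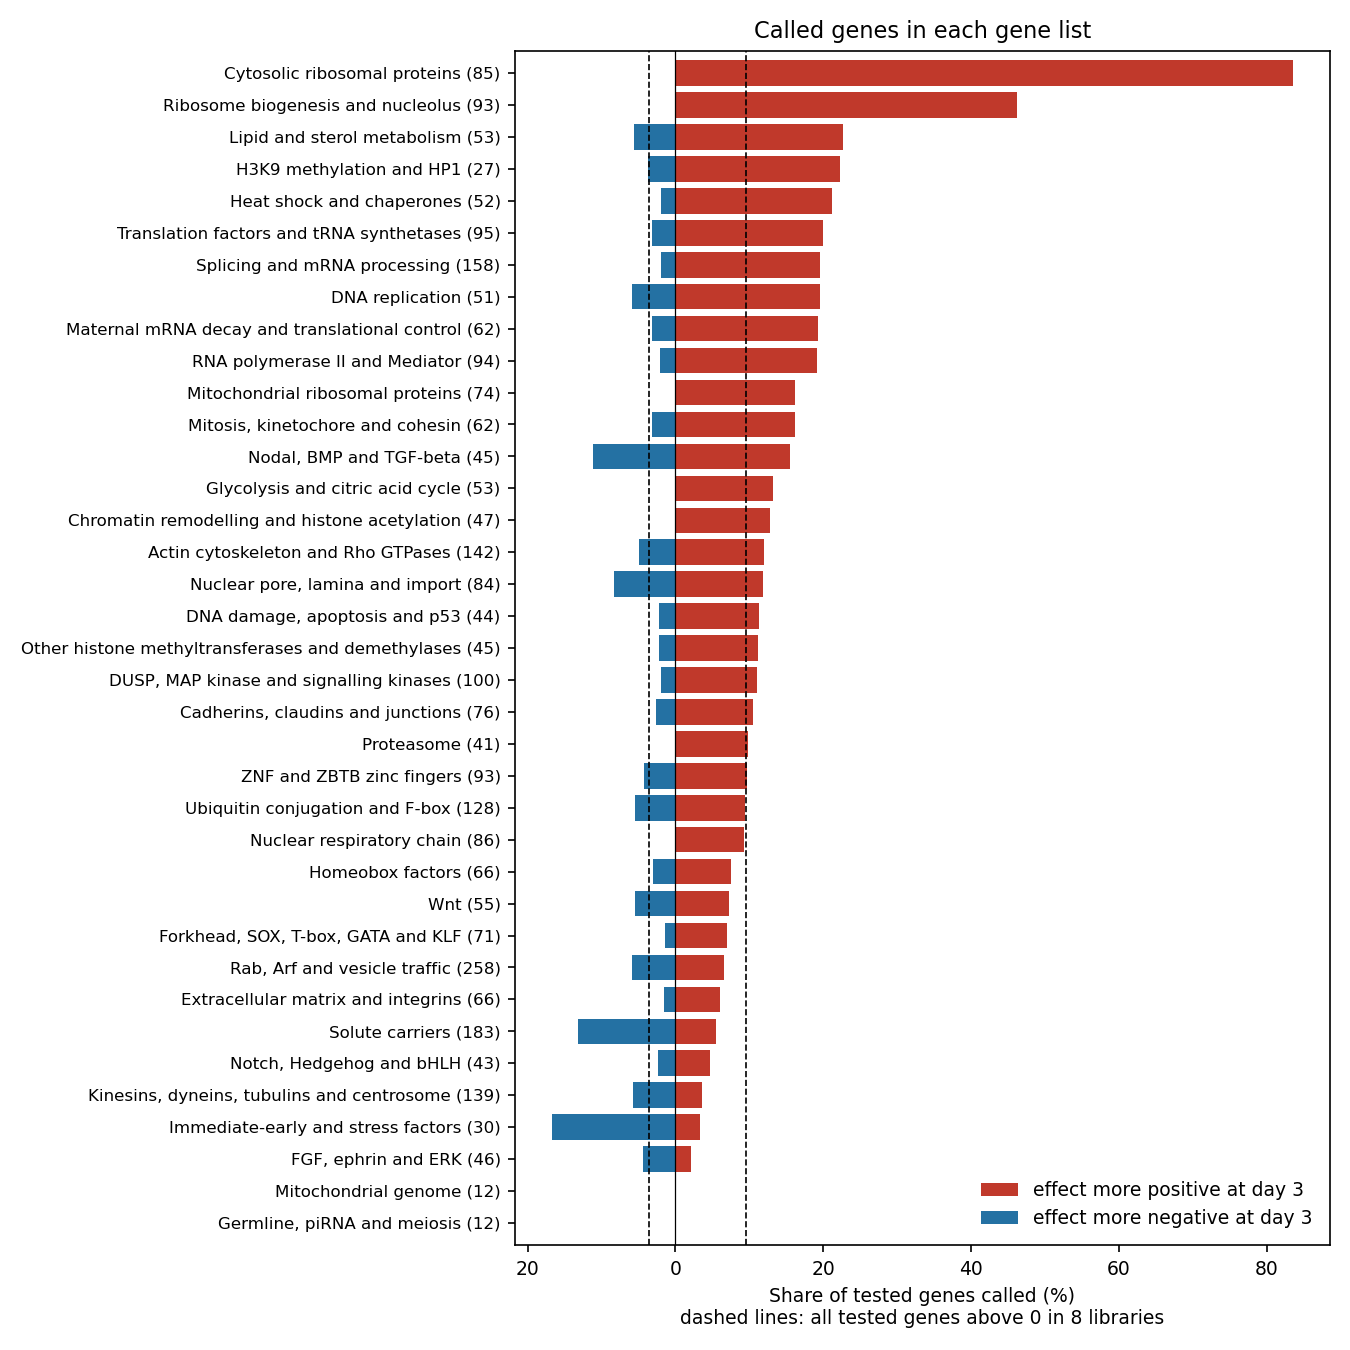
Share of detected genes in each of 37 gene lists whose day difference was called positive (red, to the right) or negative (blue, to the left), in percent, with the number of tested genes in brackets. Dashed lines mark 9.5% and 3.62%, the shares over all detected genes; ribosomal proteins and ribosome biogenesis extend furthest to the right, and immediate-early factors and solute carriers furthest to the left.

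Genes of the histone H3 lysine 9 methylation and HP1 list, the pathway of the targeted enzyme, had 6 positive calls of 27 detected members. SUV39H2 was the 1 negative call. That was 25.9% called, against 13.1% of all detected genes. At day 2, 0 members were higher in knockout and 7 lower, against 3.92% and 9.32% of all detected genes. At day 3, 1 was higher and 2 lower, against 5.83% and 1.87%. The KMT5A day difference, which shares the wildtype libraries, was positive for 6 and negative for 3 of the same 27. The shares over all detected genes were 8.64% and 4.08%. The change between days differed between the KMT1 and KMT5A knockouts for 0 of the 27, against 0.793% of all detected genes. CBX1 (PM11267), an HP1 protein that binds the lysine 9 mark, had 1552 and 1668 CPM in KMT1 knockout and 1425 and 1453 CPM in wildtype at day 3, and 658 and 649 CPM in KMT1 knockout and 802 and 797 CPM in wildtype at day 2. CBX1 was thus above wildtype at day 3 and below it at day 2, with a difference of 0.45 (adjusted p = 0.00589). The 2 genes named CBX5 (PM15842 and PM05590), which also encode HP1 proteins, had differences of 0.48 and 0.39, and kept the call in 3 and 7 of the 8 fits that left out 1 library. KDM4C, a demethylase of lysine 9, had 0.60 (adjusted p = 0.00292), almost all of it from a day 2 effect of -0.65.

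The list of other histone methyltransferases and demethylases had 5 positive calls and 1 negative call of 45 detected members, or 13.3% called, close to the 13.1% of all detected genes. Its median of 0.12 turned to -0.02 with library size alone. Of the 5 positive genes, 3 encode subunits of Polycomb repressive complex 2, which methylates lysine 27 of histone H3, and these were picked out after their values were seen. SUZ12 had 326 and 341 CPM in KMT1 knockout and 320.2 and 334 CPM in wildtype at day 3, and 59.8 and 56.8 CPM in KMT1 knockout and 87.9 and 89.3 CPM in wildtype at day 2. EZH2, the catalytic subunit, had 454 and 473 CPM in KMT1 knockout and 423 and 442 CPM in wildtype at day 3, and 141 and 154 CPM in KMT1 knockout and 192 and 200.1 CPM in wildtype at day 2. The groups of SUZ12 overlapped at day 3 and those of EZH2 did not, and both genes were below wildtype in both pools at day 2. Their differences were 0.63 and 0.51 (adjusted p = 0.0047 and 0.00541), and that of EED, the subunit that reads the mark, was 0.53 (adjusted p = 0.033). The calls of SUZ12 and EZH2 held in all 8 fits that left out 1 library, and that of EED in 2 of 8 (adjusted p up to 0.149). The negative call was KDM6A (PM17785), which removes the lysine 27 mark, at -1.06 (adjusted p = 0.0293), and it held in 1 of 8 such fits. Chromatin remodelling and histone acetylation had 6 positive calls of 47 (12.8%), again close to the share of all detected genes, and a median of 0.12 that turned to -0.01 with library size alone, including CREBBP, a histone acetyltransferase, at 0.55, INO80, a nucleosome remodeller, at 0.84, and HDAC3, a deacetylase, at 0.51. HDAC3 kept the call in 6 of the 8 left-out fits.

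DNA replication genes had 10 positive and 3 negative calls of 51 (25.5% called, against 13.1% of all detected genes). Their median of 0.07 turned to -0.06 with library size alone. PCNA, the sliding clamp of DNA polymerases, had 358 and 391 CPM in KMT1 knockout and 311 and 309 CPM in wildtype at day 3, and 167 and 165 CPM in KMT1 knockout and 225 and 215 CPM in wildtype at day 2. Its day 3 effect of 0.27 and its day 2 effect of -0.41 both passed the test. MCM10, which is needed to start replication at origins, lies on chromosome 14, as SUV39H2 does. It had a negative difference of -0.57 with effects of -0.31 at day 3 and 0.26 at day 2. Across the 8 fits that left out 1 library its difference was -0.61 to -0.56. The negative calls of RFC1, a clamp loader subunit, at -0.50 (adjusted p = 0.0214), and CLSPN, a checkpoint adaptor, at -0.60 (adjusted p = 0.0273), held in 4 and 2 of these 8 fits. Mitosis, kinetochore and cohesin genes had 10 positive and 2 negative calls of 62 (19.4% called). CENPE, a kinetochore motor, was among the negative ones at -0.55. GADD45B (PM16069), a growth arrest and DNA damage response gene, had 2016 and 2113 CPM in KMT1 knockout and 1441 and 1441 CPM in wildtype at day 3, and 1270.5 and 1266 CPM in KMT1 knockout and 1692 and 1675 CPM in wildtype at day 2. It was higher in knockout at day 3 (0.52) and lower at day 2 (-0.41), and the difference was 0.93 (adjusted p = 0.000161).

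Genes for maternal mRNA decay and translational control, which clear egg transcripts or hold them silent, had 12 positive and 2 negative calls of 62. That was 22.6% called, against 13.1% of all detected genes. Their median of 0.12 turned to -0.01 with library size alone. The 2 negative ones encode deadenylases, enzymes that shorten the poly(A) tail, a shared trait picked out after their values were seen. PARN had 68.5 and 73.2 CPM in KMT1 knockout and 73.5 and 76.5 CPM in wildtype at day 3, and 124 and 131 CPM in KMT1 knockout and 63.0 and 61.1 CPM in wildtype at day 2. PARN was thus near wildtype at day 3 and about double it at day 2, with a difference of -1.12 (SE 0.072, adjusted p = 0.000418). CNOT6L, a catalytic subunit of the CCR4-NOT complex, had -0.40 (adjusted p = 0.0124), called in 5 of 8 left-out fits. Positive members were TENT2, a cytoplasmic poly(A) polymerase that lengthens tails, at 0.75, PUM2, a Pumilio repressor, at 0.43, and ZAR1 (PM19863), an egg RNA-binding protein, at 0.59. PUM2 stayed called in all 8 left-out fits, TENT2 in 5 and ZAR1 in 2.

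Components of the Nodal, BMP and TGF-beta pathways, which pattern the embryonic axes, were called in both directions, 7 positive and 5 negative of 45. That was 26.7% called, against 13.1% of all detected genes. At the receptors, ACVR1 (PM05763), a type I receptor, had a difference of 0.66, while TGFBR1 (PM04221) had -1.03 and ACVR2B had -0.58, and these calls held in 3, 6 and 6 of the 8 left-out fits. Among the signal transducers, SMAD4 (PM09368), the shared partner of receptor-activated SMADs, had 73.5 and 69.6 CPM in KMT1 knockout and 67.8 and 68.04 CPM in wildtype at day 3, and 201 and 219 CPM in KMT1 knockout and 139 and 143 CPM in wildtype at day 2. Its difference was -0.50 (adjusted p = 0.00642). Among the inhibitors, TGIF1, a homeobox corepressor of SMADs, had 10728 and 12446 CPM in KMT1 knockout and 10528 and 10943 CPM in wildtype at day 3, and 5844 and 5767 CPM in KMT1 knockout and 8807 and 8760.2 CPM in wildtype at day 2. TGIF1 overlapped with wildtype at day 3, was below it at day 2, and had a difference of 0.71 (adjusted p = 0.00511). The 2 genes named SMAD6, which encode inhibitory SMADs, differed from each other in sign, with 0.59 for PM02269 and -1.64 for PM17838, and kept the call in 4 and 8 of the left-out fits.

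In other signalling and patterning lists, the shares called ranged around or under the 13.1% of all detected genes. FGF, ephrin and ERK genes had 1 positive and 2 negative of 46 (6.52%), Notch, Hedgehog and bHLH genes 2 and 1 of 43 (6.98%), and Wnt genes 4 and 3 of 55 (12.7%). Homeobox factors had 5 positive and 2 negative of 66 (10.6%), with HOXD3, an anterior Hox gene, at 1.62, NKX1-2 at 1.59 and PROX1 (PM06720) at -0.73, which kept the call in 3, 8 and 5 of the 8 left-out fits. The counts were 5 positive and 1 negative of 71 (8.45%) for forkhead, SOX, T-box, GATA and KLF factors.

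Solute carriers, the membrane transporters of ions, amino acids and other small molecules, were among the lists with more negative than positive calls. There were 24 negative and 10 positive of 183 (18.6% called, against 13.1% of all detected genes), with a median of -0.11. At day 3, 7 were higher and 11 lower in KMT1 knockout, against 5.83% and 1.87% of all detected genes. At day 2, 23 were higher and 11 lower, against 3.92% and 9.32%. SLC38A2, a sodium-coupled neutral amino acid transporter on chromosome 14, had 12.4 and 11.99 CPM in KMT1 knockout and 20.1 and 19.3 CPM in wildtype at day 3, and 268 and 260.2 CPM in KMT1 knockout and 161 and 167 CPM in wildtype at day 2. It was below wildtype at day 3 and above it at day 2 by the same log2 size of 0.69, and its difference was -1.38 (SE 0.058, adjusted p = 0.000111). SLC25A44 (PM09546), a mitochondrial carrier of branched-chain amino acids, had -1.02 (adjusted p = 0.000902) and SLC5A6, a vitamin transporter, had -1.26 (adjusted p = 0.00449). SLC6A8 (PM09796), the creatine transporter, also on chromosome 14, went the other way. At day 3 SLC6A8 had 222 and 239 CPM in KMT1 knockout and 373 and 349.8 CPM in wildtype. At day 2 SLC6A8 had 19.0 and 18.0 CPM in KMT1 knockout and 60.6 and 62.8 CPM in wildtype. It was below wildtype at both days and further below at day 2, which gave a difference of 1.09 (adjusted p = 0.000813). The number of negative solute carrier calls was between 8 and 27 when 1 library was left out.

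Immediate-early and stress factors, many of which cells switch on soon after a stimulus, had 5 negative and 1 positive call of 30. The other 24 were not called, and the list median was -0.04. At day 3, 1 was higher and 4 lower in KMT1 knockout, against 5.83% and 1.87% of all detected genes. At day 2, 3 were higher and 3 lower, against 3.92% and 9.32%. The positive call was DUSP1, with a difference of 0.76 to 1.09 across the fits that left out 1 library. HIF1A (PM14509), a negative call, had -0.35 to -0.28 in those fits. The calls of DUSP1 and HIF1A were each lost in most of those fits. The list had 20% called, against 13.1% of all detected genes. FOS (PM06903), a subunit of the AP-1 transcription factor, had 3.16 and 3.67 CPM in KMT1 knockout and 5.70 and 5.32 CPM in wildtype at day 3, and 2.36 and 2.23 CPM in KMT1 knockout and 1.15 and 0.983 CPM in wildtype at day 2. FOS was below wildtype at day 3 and above it at day 2, with a difference of -1.80 (SE 0.28, adjusted p = 0.00742). ZFP36L1 (PM14947), which binds AU-rich elements and promotes mRNA decay, had 21.8 and 23.2 CPM in KMT1 knockout and 36.3 and 34.7 CPM in wildtype at day 3, and 38.1 and 35.3 CPM in KMT1 knockout and 24.9 and 25.3 CPM in wildtype at day 2. Its difference was -1.21 (adjusted p = 0.00232), with both single-day effects past the test. Lipid and sterol metabolism had 12 positive and 3 negative calls of 53 (28.3% called), with a median of 0.17. Over all 37 lists, 2838 detected genes were assigned and 529 of them were called, so 961 of the 1490 called genes lay in no list.

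The same difference between days was computed for KMT5A knockout, which shares its wildtype libraries with the KMT1 difference, so the values are only set side by side. It was called for 1444 of the detected genes (12.7%), with 981 positive (8.64%) and 463 negative (4.08%). SLC12A3 (PM13099) had a difference of 2.39 for KMT1 and 2.10 for KMT5A, PTGS2 had -3.82 and -4.05, GLIS1 had -2.18 and -2.18, KLHL10 had 2.43 and 2.06, and PARN had -1.12 and -1.28. Ribosomal proteins had 71 positive and 0 negative calls for KMT1 and 73 and 0 for KMT5A. FOS (PM06903) had -1.80 for KMT1 and 0.17 for KMT5A.

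A direct contrast of the day 3 to day 2 change in KMT1 knockout against that in KMT5A knockout uses no wildtype library. It passed the test for 90 detected genes (0.793%), with 70 higher (0.617%) and 20 lower (0.176%) in KMT1 knockout. Of these 90, 42 were at 0 in both libraries of a KMT5A group, 32 with a positive and 10 with a negative contrast. Detected genes had to be above 0 in KMT1 knockout libraries but not in KMT5A knockout libraries. Genes at 0 in a KMT1 knockout group could therefore not enter, and the split of 70 and 20 depends on this rule. Another 31 of the 90 lay on chromosome 21, which carries the KMT5A gene, all with a positive contrast. The remaining 17 were 7 positive and 10 negative. The contrast shares the KMT1 knockout libraries with the KMT1 day difference, so a gene called in both has no separate support. Of the 17 genes, 12 were called in both, beside the 13.1% of all detected genes called for the day difference. FOS (PM06903) was among them, with 11.5 and 9.55 CPM at day 3 and 1.62 and 2.01 CPM at day 2 in KMT5A knockout, and a contrast of -1.96 (adjusted p = 0.0189). KMT5A knockout pools thus held more FOS than KMT1 knockout and wildtype pools at day 3. GADD45B (PM16069) had a contrast of 0.34 (adjusted p = 0.0192), and HSP90AB1 (PM00922) one of 1.36 (adjusted p = 0.0426). MCL1 (PM20884), a survival factor of the BCL2 family, and CEBPA (PM00864), a leucine zipper factor, had contrasts of -0.42 and -0.92 and were named here after their values were seen.

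On chromosome 14, which carries SUV39H2, 8 of 114 detected genes had a positive and 22 a negative day difference, or 26.3% called. Over all detected genes 13.1% were called. Chromosome 8, with 114 detected genes as well, had 20 positive and 14 negative (29.8%). Genes of chromosome 14 were set apart by their side of SUV39H2 after their values were seen, so what follows is a description. On the side of higher coordinates, 62 genes had a median day 3 effect of -0.45 and a median day 2 effect of -0.12. At day 3, 24 of the 62 (38.7%) were lower in KMT1 knockout and 2 higher, against 1.61% lower on all other chromosomes. The 24 became 15 without day 3 KMT1 knockout pool 1, 13 without day 3 wildtype pool 1 or 2, and 12 with library size alone, while the median stayed between -0.52 and -0.40. The day 3 median was -0.48 and -0.43 in the 2 KMT1 knockout pools, and -0.03 and -0.05 in the 2 KMT5A knockout pools, each against the wildtype mean. At day 2, 13 of the 62 were lower in KMT1 knockout and 5 higher, against 1039 and 432 of 11239 genes on all other chromosomes. On the side of lower coordinates, 51 genes had a median day 3 effect of -0.10, with 6 higher and 6 lower. The 6 lower became 1 or 2 without any 1 wildtype pool and 1 with library size alone.

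Negative day differences were found on both sides, for 11 of 62 genes (17.7%) at higher and 10 of 51 (19.6%) at lower coordinates, against 3.46% elsewhere. Leaving out a day 2 library gave 5 to 7 on the higher and 3 to 4 on the lower side, leaving out day 3 wildtype pool 2 gave 6 on the higher side, and library size alone gave 4 and 2. The median difference was -0.10 on the higher side and -0.01 on the lower side, and the lower side median turned to 0.04 without day 3 wildtype pool 1. SLC38A2, at 12625095 to 12646271, is one of the genes on the higher side and SUV39H2 itself bounds it. What sets this stretch of the chromosome apart at either day was not tested.

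**Figure D5:**
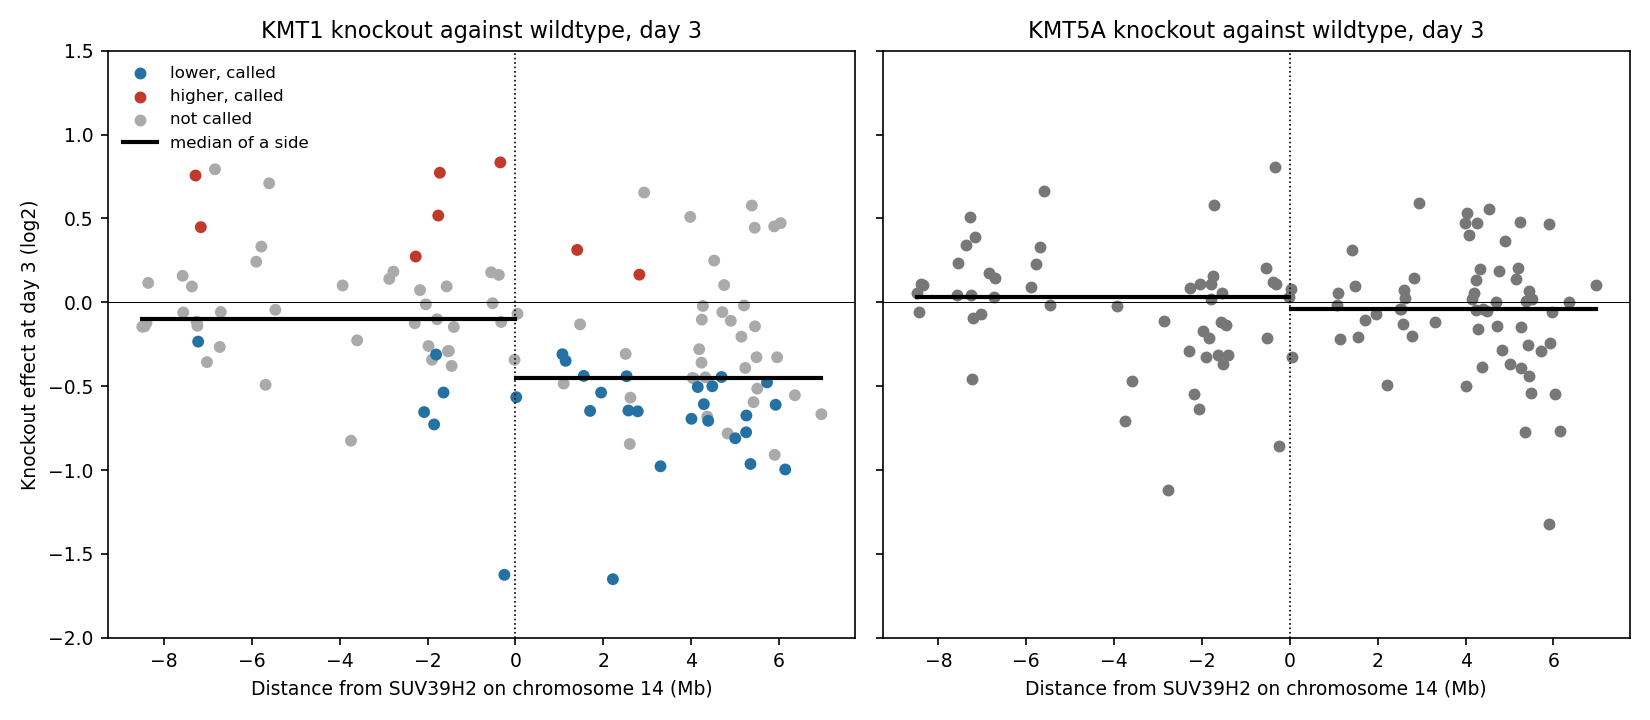
Knockout effect at day 3 (log2) of detected genes on chromosome 14 by distance from SUV39H2 in megabases, in KMT1 knockout (left) and KMT5A knockout (right), with called genes coloured on the left and black bars at the median of each side. On the side of higher coordinates the KMT1 median is -0.45, and the points of the KMT5A panel lie about 0.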

How the data were processed

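RNA was sequenced from 12 libraries in 6 groups of 2 pools, and groups were taken from the library titles. The authors deposited 1 table of estimated counts per gene, already whole numbers, that the labels call raw counts. The submitters' processing notes name HISAT2 2.2.1, StringTie 2.2.3 and DESeq2 1.42.1, without their roles. The genome build, strand setting and treatment of multiply mapping reads are not given in the sources used here. An exact 0 can be a failed estimate.

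From these counts, 1 model of 6 groups was fitted with edgeR 4.0.16 (R 4.3.3; filterByExpr, TMM scaling, quasi-likelihood F test) with 6 residual degrees of freedom. P-values were adjusted by Benjamini-Hochberg over all 15615 genes tested, with a threshold of 0.05. The test was two-sided. CPM values use TMM-scaled library sizes, except the marker sums, which use the total counts of each library. The day difference is the contrast of day 3 KMT1 knockout minus wildtype and day 2 KMT1 knockout minus wildtype. A level per group is the mean of 2 libraries. Members, gene lists and tests were chosen with earlier results of these data known.

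Genes were named by rule: SUV39H2 and KMT5A; the 12 largest positive and 12 largest negative differences among called and named genes whose highest group averaged 50 counts or more and whose ratios did not overlap between days; and up to 4 called members per list and direction with the smallest p. Alternatives were other scaling, filters and tools (limma 3.58.1, DESeq2 1.42.0), a replicate block, a ribosomal RNA term and leaving out each library. The fit was also run on simulated counts drawn with its own estimates of spread, which were shared by all groups. That run cannot show whether the test holds where groups differ in spread. Replicates of a group differed beyond sampling noise.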

Additional observations from a re-analysis of the deposited data

Results flagged for a closer look

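Every result here was picked because the knockout effect of 1 day was tested against that of the other, or the change in 1 knockout against that in the other. The tests across genes gave 1079 positive and 411 negative day differences, and 90 genes for the contrast of KMT1 with KMT5A knockout. From the gene lists, 201 genes were named by the same test.

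Single genes with a positive difference and their edgeR adjusted p-values were SYK (0.0353), KLHL10 (0.001), SLC12A3 (0.000792), INSM1 (0.001), ALDH1B1 (0.0318), DLX6 (0.00513), NMU (0.0341), CXCR4 (0.001), THBS1 (0.00394), PRXL2B (0.00328), PLCD1 (0.0287) and FBXL7 (0.00702). Those with a negative difference were SUV39H2 (0.00436), AMDHD2 (0.0439), TMEM181 (0.0162), MAN2B1 (0.0268), KIF4B (0.0226), LONRF1 (0.0147), FOS (0.00742), TPST2 (0.0306), LETM1 (0.0134), FAM107A (0.0442), GLIS1 (0.00211), RITA1 (0.0104) and PTGS2 (0.00089). Groups of 2 are too small to look for a library that stands apart within its group.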

How the results depend on the processing

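Of the 1490 called day differences, 0 changed sign under any alternative. Their knockout-to-wildtype ratios did not overlap between days, so a change of sign was hardly possible when 1 library was left out. The kept signs are therefore no separate support. The counts moved. Library size alone gave 49 positive and 79 negative differences, a minimum log2 difference of 0.5 gave 39 and 20, and DESeq2 gave 1830 and 954. With genes above 0 in all 12 libraries alone, 633 were negative. Leaving out 1 library gave 431 to 1172 positive and 145 to 514 negative. Day 3 calls against wildtype were 162, 53 and 2088 with library size alone, the minimum and DESeq2, and 361 to 1213 without 1 library. Day 2 calls were 324 with library size alone, 65 with the minimum, 2837 with voom, 2390 with DESeq2 and 614 to 1508 without 1 library. The contrast of KMT1 with KMT5A gave 47 genes with library size alone, 36 with genes above 0 in all 12 libraries, 145 with a ribosomal RNA term, 46 with the minimum, 12 with voom, 341 with DESeq2 and 47 to 198 without 1 library; it could not be fitted on 8 libraries. The KMT5A gene had a difference of 0.0205 with the ribosomal RNA term and -0.10 to 0.0226 without 1 library (0.0226 without day 2 KMT1 knockout pool 2), the positive ones on the other side of 0 from its reported value. The cause of these shifts was not tested.

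Of the 218 named genes, 179 lost the call with library size alone and 192 with the minimum. Same-numbered pools did not deviate together (correlations of -0.164 to 0.0961 over 7841 genes), so the numbers were not used as pairs. This check cannot show whether pools shared a clutch, which the labels do not say. The fit with the replicate block gave 979 positive and 364 negative differences, 1268 shared with the reported ones. With 2 pools per group, small differences of low genes were not detectable.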
